A study of Mus musculus with 32 samples.

Results

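The genes described here encode the mouse receptors for the constant part of IgG and the proteins that carry their signal: Fcgr1, Fcgr2b, Fcgr3, Fcgr4, Fcer1g, Tyrobp, Syk and Dok2, 8 of the 54446 genes counted in bulk tumor RNA. The first 7 were chosen by name as a pathway, with earlier results of these data known. Dok2 was selected on its measured rise with regorafenib 5 mg/kg/day in the DC-101 experiment, so its values in that experiment are given as a description with no test. All 32 libraries came from BNL-MEA hepatocellular carcinoma cells grown in the liver of immune-competent Balb/c mice, a model that rests on 1 transplanted cell line. The study asked how regorafenib, an oral inhibitor of VEGF receptors and other kinases, and 2 antibodies changed the immune environment of these tumors. The 3 experiments, which the labels call batches p112, p103 and p101, each had their own vehicle tumors. The dose experiment (p112) held 4 tumors given vehicle, 3 given regorafenib 5 mg/kg/day (low dose) and 3 given regorafenib 20 mg/kg/day (high dose). The DC-101 experiment (p103) held 4 vehicle tumors, 3 low-dose tumors and 3 tumors from mice given DC-101, a rat antibody against VEGFR2, as 800 µg into the peritoneum on days 1, 3 and 5. The anti-PD1 experiment (p101) held 3 tumors each of vehicle, low dose, anti-PD1, a rat antibody against the T cell checkpoint receptor PD1, and the combination of low dose with anti-PD1. The study's methods name an isotype control antibody beside anti-PD1, but the labels call the controls only vehicle and do not say which of them received it, and no label gives the age of the mice. Nothing in the labels says more about how replicates were separated than that they are separate samples, so the p-values measure the spread between these samples.

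Fc gamma receptors sit on macrophages, monocytes, neutrophils, natural killer cells and B cells and bind antibody-coated targets. The activating receptors Fcgr1, Fcgr3 and Fcgr4 reach the cell surface with the Fc receptor gamma chain, encoded by Fcer1g, whose phosphorylated ITAM motif recruits the kinase Syk and leads to phagocytosis and the oxidative burst. Fcgr2b carries an inhibitory motif instead and raises the threshold for activation. Tyrobp (DAP12) is a second ITAM chain, used by Trem and Clec receptors, and Dok2 is an adaptor of myeloid and T cells that dampens Ras signaling. In liver tumors several of these genes are read mostly as genes of macrophages, though not only macrophages express them, and antibodies given as drugs are themselves ligands of the receptors.

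Of the members, 5 lie on chromosome 1 or 3 of GRCm38 in the annotation used here. Fcgr2b (ENSMUSG00000026656.15) spans 1:170958617-170976547 on the minus strand, Fcgr4 (ENSMUSG00000059089.4) 1:171018920-171029761 on the plus strand and Fcgr3 (ENSMUSG00000059498.13) 1:171051174-171064935 on the minus strand, so the 3 low-affinity receptor genes are neighbors. Fcer1g (ENSMUSG00000058715.11) lies beyond them at 1:171229572-171234365 on the minus strand, and the high-affinity receptor Fcgr1 (ENSMUSG00000015947.10) is alone at 3:96282909-96293969 on the minus strand. Tyrobp (ENSMUSG00000030579.10) is at 7:30413760-30417585, Syk (ENSMUSG00000021457.14) at 13:52583173-52648792 and Dok2 (ENSMUSG00000022102.13) at 14:70766036-70778495, each on the plus strand. Of the 100-base windows of the longest transcript, 6.79% in Fcgr2b also occur in Cplx2 or Gm47409 and 3.53% in Fcgr3 also occur in Fcgr2b, so a small share of these reads could have been lost or shared with those genes. Fcgr2b overlaps the antisense gene Gm38204 by 155 exonic bases, and that gene had 0 to 2 counts in each library.

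Promoters are shown for the 3 activating receptors, since with all libraries in the fit the edgeR calls among the 4 receptor genes fell on these 3. Each is the 250 bases before the RefSeq start in GRCm38.p6, read on the gene's own strand. Capitals mark the core GAGGAA of PU.1, the factor that macrophages use to keep many of their genes on (TTCCTC where it is on the opposite strand). The windows are Fcgr1 chr3:96293970-96294219 (minus strand), Fcgr3 chr1:171059395-171059644 (minus strand, of which 27 bases are exonic) and Fcgr4 chr1:171018676-171018925 (plus strand, 6 bases exonic).
Fcgr1: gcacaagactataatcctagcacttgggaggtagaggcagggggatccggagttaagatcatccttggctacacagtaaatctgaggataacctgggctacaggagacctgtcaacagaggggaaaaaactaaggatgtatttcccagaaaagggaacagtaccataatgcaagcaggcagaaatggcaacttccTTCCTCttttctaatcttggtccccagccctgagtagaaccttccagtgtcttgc
Fcgr3: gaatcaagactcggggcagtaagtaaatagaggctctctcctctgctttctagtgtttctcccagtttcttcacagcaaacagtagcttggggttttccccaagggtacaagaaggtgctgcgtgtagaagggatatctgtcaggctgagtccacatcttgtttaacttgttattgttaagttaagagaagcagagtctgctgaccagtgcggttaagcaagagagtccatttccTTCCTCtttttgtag
Fcgr4: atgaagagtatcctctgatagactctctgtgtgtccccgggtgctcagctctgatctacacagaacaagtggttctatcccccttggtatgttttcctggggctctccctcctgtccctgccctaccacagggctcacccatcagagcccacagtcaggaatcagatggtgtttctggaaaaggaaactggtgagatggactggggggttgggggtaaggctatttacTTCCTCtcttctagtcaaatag
The PU.1 core on either strand began 55 bases before the start in Fcgr1, 15 in Fcgr3 and 22 in Fcgr4. Of 32851 RefSeq promoters of the same length, 7639 (23.25%) hold these letters. In Fcgr1 and Fcgr3 they lie in the same run of 14 bases, ttccttcctctttt. Fcgr2b and Fcer1g held no match, 1 of the 2 Syk windows held the PU.1 core, and Tyrobp and Dok2 were not analyzed for lack of an entry. These are matches of letters and not measured binding.

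Every member was detected in every library, with 62 to 12667 counts, and all 8 passed the filter on low counts in each experiment. The dose libraries summed to between 16767130 and 27693689 counts, the DC-101 libraries to between 17936497 and 25489496, and the anti-PD1 libraries to between 20463408 and 25336811. Levels are given as log2 CPM, the count scaled to library depth with TMM factors fitted within each experiment and a prior count of 2. Per kilobase of exon, the ITAM chains were the most abundant members in the 11 vehicle tumors, with Tyrobp at 7.89 ± 0.60 and Fcer1g at 7.29 ± 0.53 log2 CPM per kb (mean ± SD, n = 11). Fcgr3 followed at 6.81 ± 0.71, then Fcgr2b at 5.56 ± 0.64, Fcgr4 at 5.10 ± 0.95 and Fcgr1 at 4.60 ± 0.47. Within experiments the lower receptors changed places, with Fcgr4 (6.26) above Fcgr2b (5.90) in the anti-PD1 vehicle tumors and Fcgr1 (4.63) above Fcgr4 (4.40) in those of the dose experiment. Syk stood at 2.64 ± 0.53 and Dok2 at 1.55 ± 0.82 log2 CPM per kb. Neighbors in this order differed by no more than the larger of their SDs for Tyrobp and Fcer1g, Fcer1g and Fcgr3, Fcgr2b and Fcgr4, and Fcgr4 and Fcgr1, and by more for the other 3 pairs. The plot of levels by library shows all 32 values of each gene.

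**Figure D1:**
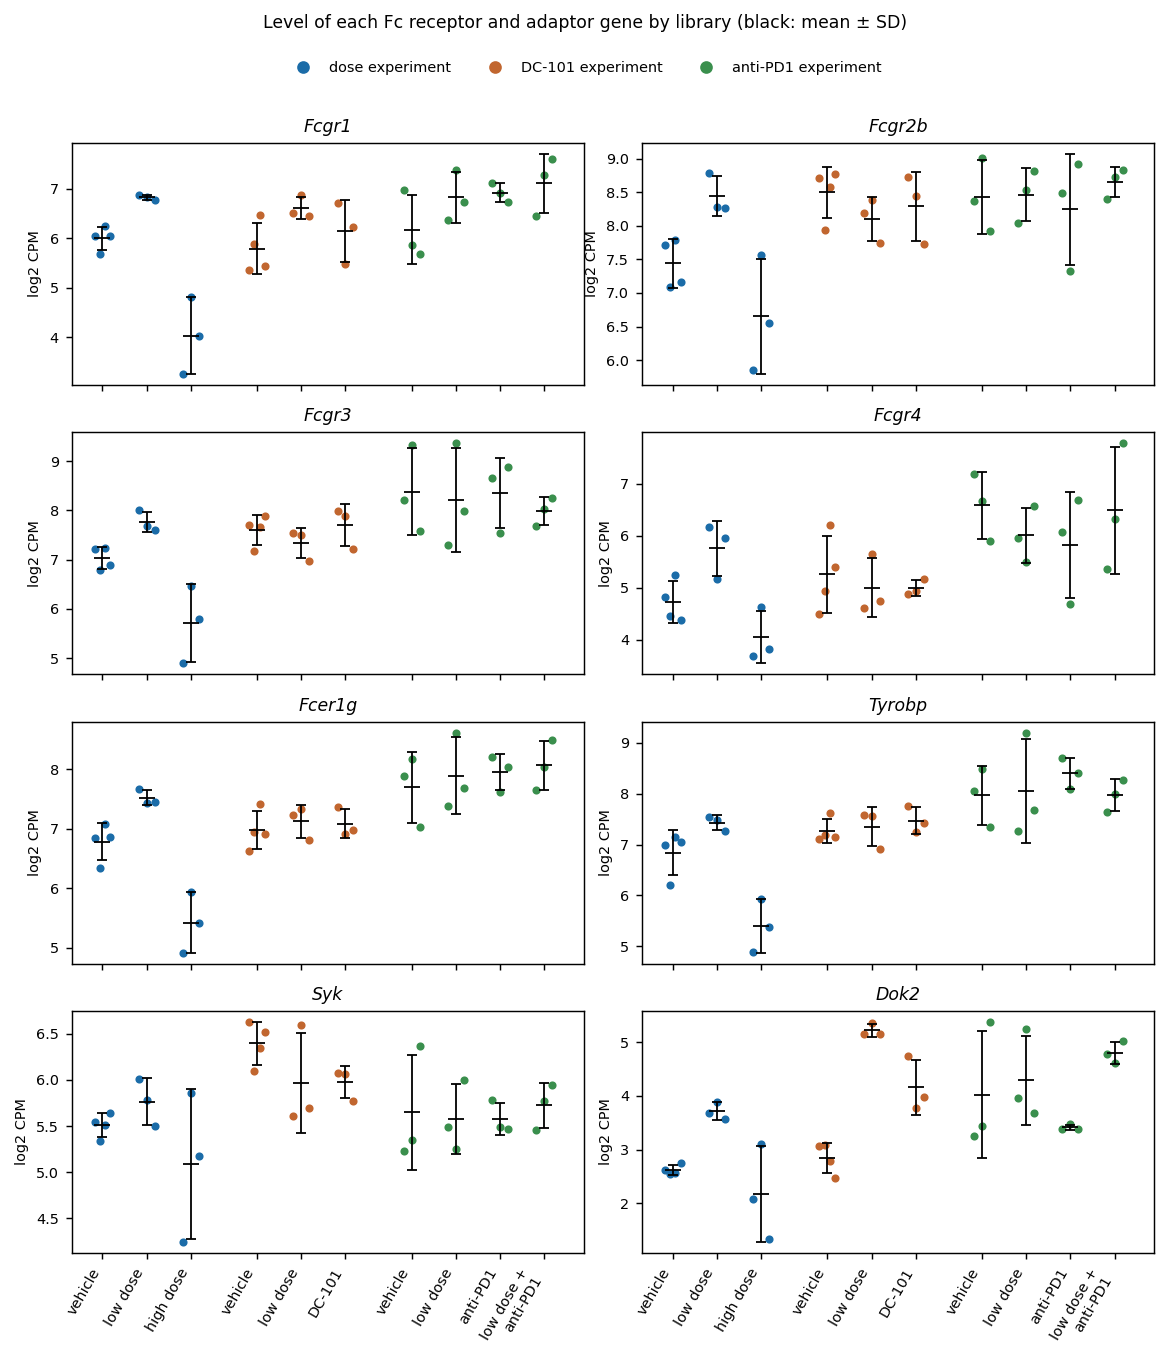
Level of each of the 8 genes (log2 CPM, y axis) in all 32 libraries by treatment group (x axis) and colored by experiment, with the mean and SD in black. The 3 high-dose tumors lie below every vehicle and low-dose tumor of their experiment for Fcgr1, Fcgr3, Fcer1g and Tyrobp, while Dok2 is raised at the low dose in the DC-101 experiment.

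Low-dose regorafenib in the dose experiment came with higher values of every member, but none passed the adjusted threshold. Fcgr1 read 6.04, 5.69, 6.25 and 6.04 log2 CPM in the 4 vehicle tumors and 6.89, 6.83 and 6.78 in the 3 low-dose tumors. Fcgr2b, the inhibitory receptor, read 7.72, 7.09, 7.78 and 7.17 under vehicle and 8.78, 8.27 and 8.26 at the low dose. The low-dose tumors lay above all vehicle tumors for both genes. This held for 6 of the 8 members (Fcgr1, Fcgr2b, Fcgr3, Fcer1g, Tyrobp and Dok2), where 6.92% of all 16525 tested genes had low-dose libraries wholly above vehicle. The fitted log2 changes, which differ slightly from differences of mean log2 CPM, were 0.82 for Fcgr1 (SE 0.30, 1.76-fold), 0.99 for Fcgr2b (SE 0.37, 1.98-fold), 1.05 for Fcgr4 (SE 0.32, 2.07-fold) and 1.11 for Dok2 (SE 0.36, 2.15-fold). Fcgr3, Fcer1g and Tyrobp had changes of 0.73, 0.72 and 0.55, and Syk had 0.26 (SE 0.31). The median over the 8 members was 0.78, against 0.0012 over all genes tested. By edgeR's quasi-likelihood test with Benjamini-Hochberg adjustment, 0 of 8 members and 0 of 16525 genes (0%) passed an adjusted p of 0.05, and the lowest adjusted p of a member was 0.831, for Fcgr4. Without adjustment 6 members had p under 0.05, all of them higher, beside 2.41% of all genes. DESeq2 called 85 genes in this comparison and limma voom 0, and neither called a member. With only the vehicle and low-dose libraries in the fit, Fcgr1 and Dok2 were called higher, beside 0.19% of 15798 genes. The 10 macrophage and monocyte markers moved the same way, with a median change of 0.63 and a summed level of 2150 to 3087 CPM under vehicle and 3807 to 5453 CPM at the low dose, and none of the 10 was at 0 counts in any library. Natural killer markers, of which 4 of 7 were tested, had a median change of 1.28 and summed to 2.29 to 3.502 CPM under vehicle and 5.11 to 7.54 CPM at the low dose, all 5 T cell markers had changes above 0 (median 0.90) and all 5 endothelial markers below 0 (median -0.97), none of them called (edgeR). The part of these markers in the members' values was not tested, and in bulk RNA the number of cells of a type and the RNA per cell cannot be told apart.

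At the high dose, both ITAM chains and the activating receptors Fcgr1 and Fcgr3 fell from vehicle, while Fcgr4 did not pass. Fcgr1, the high-affinity receptor, read 3.25, 4.81 and 4.03 log2 CPM in the 3 high-dose tumors, all below its lowest vehicle value of 5.69, and fell by 1.85 on the log2 scale (SE 0.32, 0.277 of the vehicle level, edgeR adjusted p = 0.0236). Fcer1g, the gamma chain, read 6.84, 6.35, 7.08 and 6.85 under vehicle and 4.92, 5.93 and 5.42 at the high dose. It fell by 1.32 (SE 0.25, edgeR adjusted p = 0.0278). Tyrobp fell by 1.42 (SE 0.29, edgeR adjusted p = 0.0313), from 6.20 to 7.14 under vehicle to 4.88, 5.94 and 5.39. Fcgr3 fell by 1.19 (SE 0.32, edgeR adjusted p = 0.0453), from 6.78 to 7.23 under vehicle to 4.89, 6.47 and 5.80. These 4 members were called lower, beside 6.82% of all tested genes called lower and 8.8% called higher, and the same 4 had no overlap with vehicle, beside 16.6% of genes. The other 4 did not pass. Fcgr2b had a change of -0.65 (SE 0.38, edgeR adjusted p = 0.223), with 5.85, 7.56 and 6.55 at the high dose against 7.09 to 7.78 under vehicle. Fcgr4 had -0.66 (SE 0.33, edgeR adjusted p = 0.167), and its 3.69, 4.63 and 3.83 overlapped the vehicle range of 4.38 to 5.25 by 1 tumor. Syk had -0.28 and Dok2 -0.27, and for both the second high-dose tumor was above every vehicle tumor, at 5.86 and 3.10. The second high-dose tumor was the highest of the 3 for every member.

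When any 1 of the 4 vehicle libraries was left out, 0 members passed, and Fcgr1 had log2 changes of -1.93 to -1.77 with edgeR adjusted p-values of 0.0605 to 0.0721. The low-dose libraries enter the same fit, and 0 members passed without low-dose replicate 1, 1 (Fcgr1) without replicate 2 and 3 without replicate 3. Without high-dose replicate 1, Fcgr3 alone was lost and 3 remained. With the replicate number as a block, and also with total-count scaling, with a hepatocyte score as covariate or with only the 2 groups in the fit, the count was 0. In that order these fits called 1, 282 and 221 of 16525 genes and 4 of 16071 genes, against 2582 in the main fit. DESeq2 and limma voom called the same 4 members, where they called 11.5% and 5.39% of all genes lower. The macrophage markers fell too, 7 of 10, with a median of -1.23, and their summed level of 639 to 1500 CPM lay below every vehicle tumor. Hepatocyte markers summed to 3630 to 84728 CPM at the high dose and 1438 to 8290 CPM under vehicle, higher in 10 of 10 markers with 0 called (edgeR), 3 of 5 T cell markers rose, and natural killer markers, with 2 of 4 tested called higher, summed to 5.47 to 12.1 CPM. The part of these shifts in the members' values was not tested.

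Against the low dose, 5 members were lower at the high dose. Fcgr1 fell by 2.67 (SE 0.34, 0.157 of the low-dose level, edgeR adjusted p = 0.00783), Fcer1g by 2.04 (SE 0.27, adjusted p = 0.00815) and Tyrobp by 1.97 (SE 0.31, adjusted p = 0.0159). Fcgr3 fell by 1.92 (SE 0.35, edgeR adjusted p = 0.0239) and Fcgr4 by 1.71 (SE 0.36, adjusted p = 0.0377), the latter from 6.17, 5.17 and 5.95 log2 CPM. These 5 of 8 were called lower where 2.48% of all genes were called lower and 1.74% higher. Fcgr2b had a change of -1.64 (SE 0.41, edgeR adjusted p = 0.0565), Dok2 -1.38 (SE 0.39, adjusted p = 0.0783) and Syk -0.55 (SE 0.34, adjusted p = 0.284). For all members but Syk, the high-dose tumors lay wholly below the low-dose tumors, as did 16.2% of all genes. The median of the members was -1.82, against 0.07 for all genes and -2.11 for the macrophage markers. Fcgr1 passed whichever 1 of the 10 libraries in the fit was left out. Fewer of the others passed without a low-dose tumor, with 1 member left without replicate 1 (Fcgr1), 2 without replicate 2 (Fcgr1 and Fcer1g) and 3 without replicate 3 (Fcgr1, Fcer1g and Tyrobp). Fcgr4 was lost without high-dose replicate 1 or any 1 vehicle library, leaving 4, and 7 members passed without high-dose replicate 2 or 3. With the replicate block, or with only these 2 groups in the fit, 0 members passed, beside 1 of 16525 and 0 of 16069 genes in all. DESeq2 and limma voom each called 7, adding Fcgr2b and Dok2, where they called 7.3% and 2.98% of all genes lower. The plot of changes sets all comparisons with vehicle side by side.

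**Figure D2:**
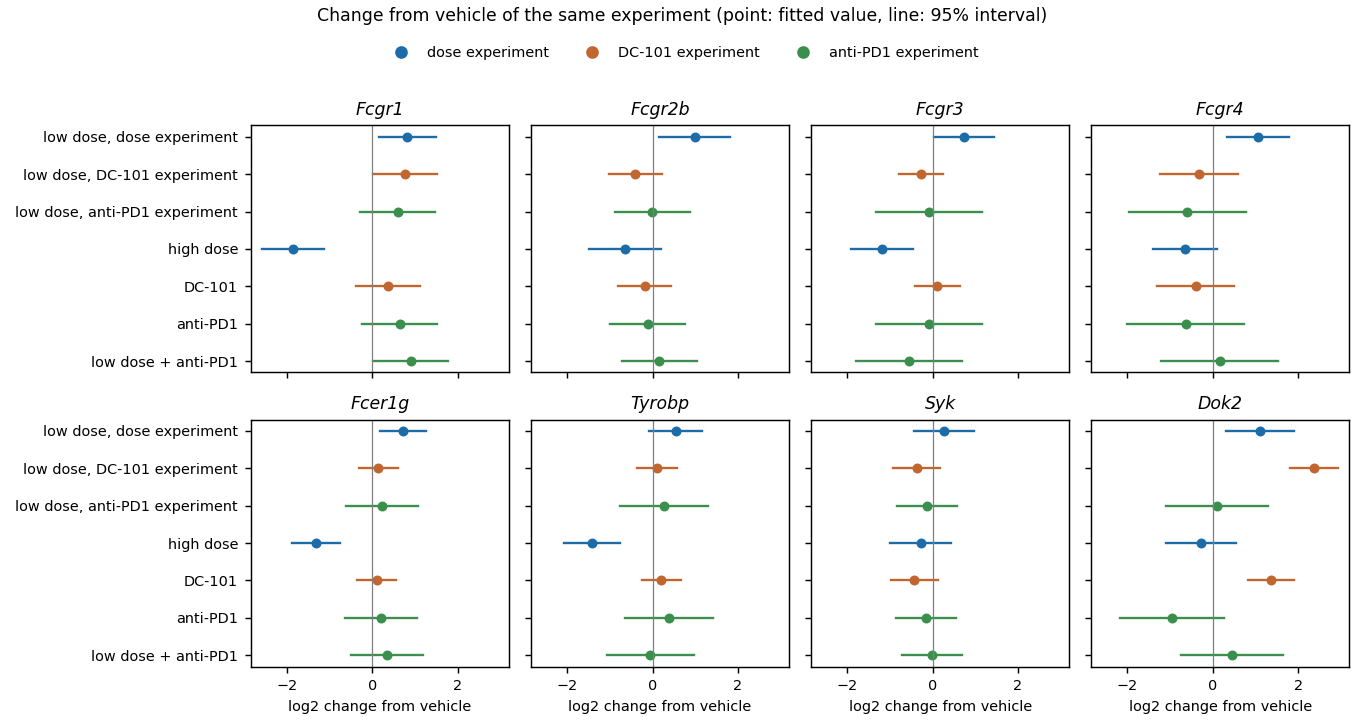
Fitted log2 change from the vehicle tumors of the same experiment (x axis) for each gene and treatment (y axis), with 95% intervals and colored by experiment. The high-dose intervals of Fcgr1 (-2.57 to -1.13), Fcgr3, Fcer1g and Tyrobp lie below 0, and those of DC-101 and of anti-PD1 alone span 0 for every member tested. Dok2 was selected on the DC-101 experiment, so its intervals there are a description and no test.

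The genes that act around the receptors were taken from pathway lists of 102 genes, of which 91 were tested in the dose experiment. These lists too were chosen with earlier results of these data known, so the counts and p-values below are not independent of them. At the high dose, 34 were lower and 2 higher than vehicle (edgeR adjusted p under 0.05), and against the low dose 39 were lower and 1 higher. The shares of all genes called, given above, are the background for these counts, and both comparisons use the same 3 high-dose tumors. Fewer passed in smaller fits. Without 1 vehicle library, 3 to 6 of the listed genes were lower and 0 higher than vehicle, and without 1 low-dose library 9 to 22 were lower than at the low dose. With only the 2 groups in the fit, 1 was lower than vehicle and 0 than the low dose, where 4 and 0 of all genes were called. With the replicate block 0 passed in both, where 1 of all genes was called in each. In the actin and phagosome list, which holds the oxidase subunits, 7 of 11 fell against vehicle and 9 of 11 against the low dose. The inhibitory receptors of myeloid cells fell in 7 of 11 and 8 of 11. Receptors that pair with Fcer1g or Tyrobp fell in 7 of 18 tested in both comparisons, and Trem1 and Clec5a, both of which signal through Tyrobp, moved most. Trem1 fell by 3.83 from vehicle (SE 0.42, edgeR adjusted p = 0.0109) and fell by 4.48 from the low dose (SE 0.44, adjusted p = 0.00464). Clec5a fell by 3.06 (SE 0.33, edgeR adjusted p = 0.0109) and fell by 3.63 (SE 0.35, adjusted p = 0.00464). Proximal adaptors fell in 5 of 11 against vehicle and 6 of 11 against the low dose, and inhibitory enzymes and adaptors in 3 and 4 of 11. Of 7 lipid signaling genes, 2 fell in both comparisons (Plcg2 and Pik3cg, named after their values were seen), while Plcg1, a phospholipase that most cells express, rose by 0.52 against the low dose (SE 0.12, edgeR adjusted p = 0.0439). In the list of other Fc receptors 0 of 5 tested fell, and Pigr, the epithelial transporter of IgA, rose by 5.30 against vehicle (SE 1.45, edgeR adjusted p = 0.0456). In the interferon gamma response list, 0 of 11 fell and 1 rose against vehicle, Gbp2, by 1.01 (SE 0.29, edgeR adjusted p = 0.0477), a gene named after its value was seen. The calls of Pigr and Gbp2 each held in 2 of 10 fits that left out 1 library and that of Plcg1 in 1 of 10, where those of Trem1 and Clec5a held in 10 of 10. Over those 10 fits and 8 alternatives, the change against vehicle ran from 1.63 to 5.99 for Pigr. Among the marker lists, Ccr2 of monocytes fell by 3.05 (SE 0.45, edgeR adjusted p = 0.0170) against vehicle, Cd79a of B cells rose by 3.63 (SE 0.97, adjusted p = 0.0442) and Eomes of natural killer cells by 2.28 (SE 0.47, adjusted p = 0.0315), and these held in 6, 3 and 3 of 10 fits that left out 1 library. The change of Cd79a ran from 1.71 to 4.10 over the same fits and alternatives. At the low dose 0 of these 91 genes passed (edgeR) and 82 had a change above 0, where the median change over all genes was 0.0012. Over the pathway and marker lists together, the 2 genes with the smallest unadjusted p were both natural killer markers. These were Prf1 (1.56, SE 0.30, edgeR adjusted p = 0.398) and Eomes (2.04, SE 0.47, adjusted p = 0.574).

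**Figure D3:**
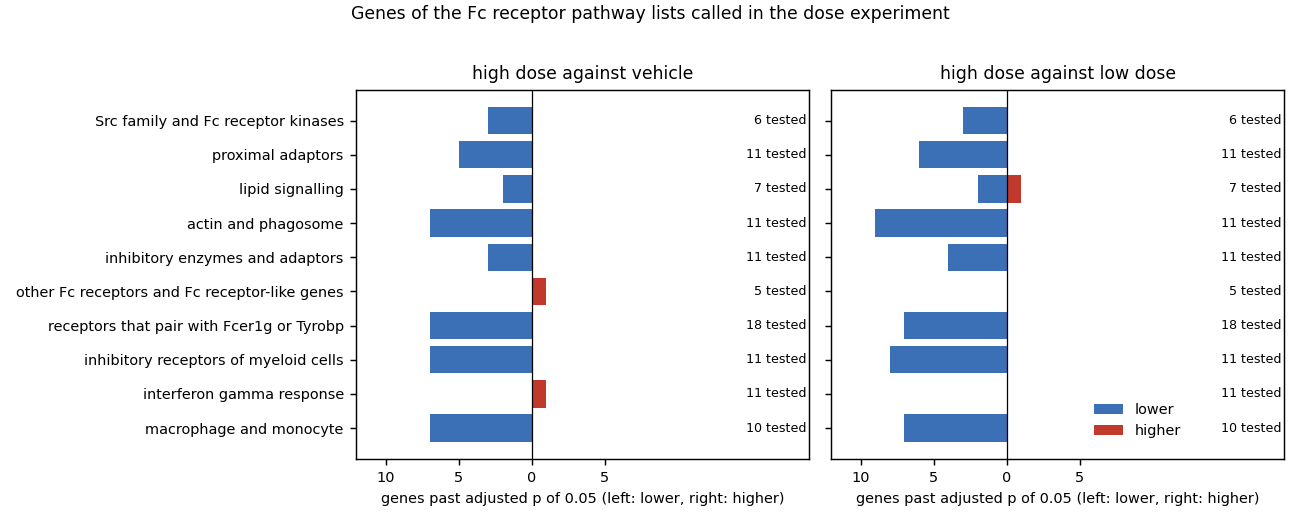
Number of genes of each pathway list (y axis) past an adjusted p of 0.05 in the high-dose comparisons with vehicle and with the low dose, lower to the left and higher to the right of 0 (x axis, genes). Only the lists of other Fc receptors, interferon gamma response and lipid signaling hold a bar to the right, of 1 gene each, with 7 and 9 of 11 actin and phagosome genes lower.

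Under DC-101 no receptor or chain gene passed the test against vehicle, and the intervals of the changes were wide. Fcgr1 read 5.37, 5.89, 6.48 and 5.43 log2 CPM under vehicle and 6.72, 5.47 and 6.23 under DC-101, a change of 0.36 (95% interval -0.39 to 1.12). Fcgr2b read 8.71, 7.93, 8.58 and 8.76 under vehicle and 8.72, 8.44 and 7.72 under DC-101, a change of -0.18 (-0.80 to 0.44). The groups overlapped for both genes. Fcgr3 had 0.11 (95% interval -0.41 to 0.63), Fcgr4 -0.41 (-1.32 to 0.51), Fcer1g 0.10 (-0.36 to 0.55) and Tyrobp 0.21 (-0.26 to 0.67), none past the threshold. Syk, the kinase, was lower in all 3 DC-101 tumors, at 6.08, 6.07 and 5.77, than in the 4 vehicle tumors, at 6.63, 6.09, 6.35 and 6.52. The gap to the nearest vehicle tumor was small and the change of -0.43 (SE 0.24, edgeR adjusted p = 0.448) did not pass, and 8.19% of all genes lay wholly below vehicle in this way. None of the 7 tested members and 0 of 16138 genes (0%) passed in edgeR, 0 members had an unadjusted p under 0.05 beside 13.2% of all genes, and DESeq2 called 372 genes and limma voom 0, and neither called a tested member. Of the pathway and marker genes, those with the smallest unadjusted p were Cdh5, an endothelial cadherin (-1.56, SE 0.29, edgeR adjusted p = 0.309), and Trem1 (1.14, SE 0.27, adjusted p = 0.309).

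Dok2 stood apart in the DC-101 experiment, the experiment it was selected on. Its values were 3.06, 3.08, 2.79 and 2.48 log2 CPM under vehicle, 5.15, 5.36 and 5.16 at the low dose and 4.74, 3.77 and 3.97 under DC-101. The 3 groups did not overlap, with the DC-101 tumors between the others. The fitted change was 2.37 at the low dose (5.16-fold), 1.36 under DC-101 (2.58-fold) and -1.003 for DC-101 against the low dose, with no test. Of all genes, 6.93% lay wholly above vehicle at the low dose, 5.25% wholly above vehicle under DC-101 and 5.48% wholly below the low dose under DC-101. Both comparisons with vehicle share the same 4 vehicle tumors. In the same experiment the low dose left Fcgr1 at 6.52, 6.87 and 6.44, a change of 0.76 (SE 0.33, unadjusted p = 0.0487, edgeR adjusted p = 0.289). Fcgr2b had -0.41, Fcgr3 -0.27, Fcgr4 -0.32, Syk -0.37, Fcer1g 0.14 and Tyrobp 0.10, and none passed. At the low dose 0 of 7 tested members passed where 4 genes in all did (0.0248%), and 1 member had an unadjusted p under 0.05 beside 17.1% of all genes. DESeq2 called 1097 genes there and limma voom 4. Trem1 (1.87, SE 0.27, edgeR adjusted p = 0.0753) and Cdh5 (-1.64, SE 0.30, adjusted p = 0.0865) led the pathway and marker genes. Between DC-101 and the low dose, 0 of 7 members and 0% of genes passed in edgeR, 0 members had an unadjusted p under 0.05 beside 8.45% of genes, and changes ran from -0.40 for Fcgr1 to 0.38 for Fcgr3. DESeq2 called 187 genes there and limma voom 0. Fcgrt, the neonatal Fc receptor that spares IgG from breakdown, was 0.81 higher under DC-101 than at the low dose (SE 0.16, edgeR adjusted p = 0.401), and Clec4e had -1.28 (SE 0.36, adjusted p = 0.476). Cell markers moved with the groups as well. The mean log2 CPM of 5 Kupffer cell markers was -1.97 to 1.56 under vehicle and 2.11 to 4.13 at the low dose, with no overlap, and that of 5 endothelial markers was 4.43 to 5.59 under vehicle and 3.59 to 4.02 at the low dose, again with no overlap. Hepatocyte markers summed to 22.1 to 5403 CPM under vehicle, 1634 to 19987 CPM at the low dose and 69.2 to 27663 CPM under DC-101, and macrophage markers to 3010 to 4707, 2922 to 4880 and 3176 to 7057 CPM. Under DC-101 the Kupffer markers ran from -1.42 to 4.03 and the endothelial markers from 3.01 to 4.35. The part of these shifts in the values of Dok2 and the other members was not tested.

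Outside the experiment used to select it, Dok2 was less uniform. In the dose experiment it read 2.63, 2.55, 2.56 and 2.75 log2 CPM under vehicle and 3.69, 3.89 and 3.56 at the low dose, with no overlap. In the anti-PD1 experiment it read 3.24, 3.45 and 5.38 under vehicle and 3.96, 5.24 and 3.68 at the low dose. There the third vehicle tumor was the highest of all and the groups overlapped. Fitted over these 2 experiments together, 6 low-dose and 7 vehicle tumors, the change was 0.64 (SE 0.38, edgeR adjusted p = 0.640 over 15690 genes).

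Anti-PD1 also gave no call among the members. Fcgr1 read 6.98, 5.86 and 5.69 log2 CPM under vehicle, 7.13, 6.92 and 6.73 under anti-PD1 and 6.46, 7.28 and 7.61 with the combination. The first vehicle tumor lay among the treated ones and the other 2 below all of them. The change was 0.64 for anti-PD1 (SE 0.40, 95% interval -0.25 to 1.52, edgeR adjusted p = 0.513) and 0.90 for the combination (SE 0.40, interval 0.0079 to 1.78, unadjusted p = 0.0483, adjusted p = 0.602). Low-dose regorafenib alone had 0.59 (SE 0.40, edgeR adjusted p = 0.627). These 3 comparisons share the 3 vehicle tumors. Over 8 alternatives of scaling, filter, test or design, the change of Fcgr1 ran from 0.13 to 0.75 under anti-PD1. It ran from 0.22 to 0.65 at the low dose and from 0.68 to 0.94 with the combination. Fcgr3 read 8.21, 9.33 and 7.59 under vehicle and 8.66, 7.55 and 8.87 under anti-PD1, a change of -0.10 (95% interval -1.33 to 1.14). Fcgr4 read 7.18, 6.66 and 5.91 under vehicle and 6.07, 4.70 and 6.70 under anti-PD1, a change of -0.64 (-2.01 to 0.73). With a hepatocyte score as covariate the change of Fcgr4 was -2.16 (edgeR adjusted p = 0.873), and hepatocyte markers summed to 9750 to 12877 CPM under vehicle and 933 to 2998 CPM under anti-PD1. At the low dose of this experiment Fcgr4 had -0.60, and -1.91 with that covariate (edgeR adjusted p = 0.757). Kupffer cell markers summed to 56.4 to 311 CPM under vehicle, 4.13 to 29.2 under anti-PD1 and 1.52 to 16.7 at the low dose. Liver sinusoidal endothelial markers summed to 108 to 169, 8.35 to 35.6 and 6.46 to 25.3 CPM. Macrophage markers overlapped, at 3692 to 7027, 4801 to 8448 and 3418 to 18411 CPM. The part of these markers in the members' values was not tested. Under anti-PD1 Fcgr2b had -0.12 (-0.999 to 0.76), Fcer1g 0.21 (-0.64 to 1.05), Tyrobp 0.38 (-0.64 to 1.41) and Syk -0.16 (-0.86 to 0.54). The intervals for Fcgr1, Fcgr3, Fcgr4, Fcer1g and Tyrobp reach beyond a log2 change of 1 in at least 1 direction, so with 3 against 3 tumors they do not exclude a change of that size.

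Dok2 separated the 2 anti-PD1 arms more than any other member. It read 3.39, 3.47 and 3.39 log2 CPM under anti-PD1 and 4.77, 4.60 and 5.02 with the combination, with no overlap, beside 16% of all genes wholly higher in the combination. The change was 1.40 (2.64-fold, SE 0.56, 95% interval 0.18 to 2.62), with an unadjusted p of 0.0285 that did not survive adjustment (edgeR adjusted p = 0.514). Cell markers separated the same arms. T cell markers summed to 6.16 to 12.3 CPM under anti-PD1 and 21.9 to 49.9 CPM with the combination, natural killer markers to 1.35 to 4.58 and 11.3 to 17.2 CPM, B cell markers to 3.10 to 4.18 and 5.14 to 12.1 CPM and hepatocyte markers to 933 to 2998 and 4156 to 16701 CPM, none overlapping. Macrophage markers overlapped, at 4801 to 8448 and 4703 to 6338 CPM. The part of these markers in the value of Dok2 was not tested. Against vehicle, anti-PD1 had -0.96 (SE 0.55, edgeR adjusted p = 0.474) and the combination 0.44 (SE 0.55, adjusted p = 0.848) for Dok2, and the vehicle group holds the high replicate 3. Over 8 alternatives of scaling, filter, test or design, these ran from -0.99 to -0.22 and from 0.42 to 0.78. Without that vehicle replicate 3, the change of Dok2 was 0.07 under anti-PD1 and 1.47 with the combination (edgeR adjusted p = 0.414), and without vehicle replicate 1 or 2 the combination had 0.078 and 0.14. The other members had changes between -0.46 (Fcgr3) and 0.80 (Fcgr4) for the combination against anti-PD1. In all 4 comparisons of this experiment 0 of 8 members passed in edgeR and 0% of 16615 genes did. The count of members with an unadjusted p under 0.05 was 0 for the low dose (11.8% of genes), 0 for anti-PD1 (13.7%), 1 for the combination against vehicle (8.2%) and 1 for the combination against anti-PD1 (8.68%). DESeq2 called 435, 614, 150 and 192 genes in these comparisons and limma voom 0 in each.

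Among the pathway and marker genes in the anti-PD1 experiment, those with the smallest unadjusted p did not pass. Marco and Vsig4, Kupffer cell genes, had -8.05 (SE 1.56) and -3.82 (SE 0.93) under anti-PD1, each with an edgeR adjusted p of 0.249. Ms4a1 of B cells and Fcmr, the receptor for IgM, had 2.93 (SE 0.62) and 2.75 (SE 0.59) at the low dose, each at an edgeR adjusted p of 0.246. The combination had -1.70 for the macrophage marker Mertk (SE 0.36) and 1.45 for the adaptor Blnk (SE 0.35) against vehicle, both at an edgeR adjusted p of 0.449. Against anti-PD1 it had 3.88 for Ncr1 of natural killer cells (SE 0.80) and 2.94 for Fcmr (SE 0.65), both at an adjusted p of 0.472 by edgeR.

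Over the 3 experiments together Fcgr1 was the 1 tested member called higher at the low dose. In 9 low-dose and 11 vehicle tumors, with the experiment as a covariate, its log2 change was 0.73 (SE 0.18, 1.66-fold, 95% interval 0.36 to 1.10, edgeR adjusted p = 0.0405). The 7 tested members are set beside 0.733% of 15562 genes called higher and 1.04% called lower. The within-experiment changes were 0.82, 0.76 and 0.59, and the edgeR test of whether they differed gave an adjusted p of 0.997. Fcer1g had 0.37 (SE 0.18, edgeR adjusted p = 0.320), Tyrobp 0.31, Fcgr2b 0.21, Fcgr3 0.14, Fcgr4 0.08 and Syk -0.07. The inhibitory receptor was less even than Fcgr1, with changes of 0.99, -0.41 and -0.00795 in batches p112, p103 and p101 (edgeR unadjusted p = 0.0103 and adjusted p = 0.424 for the difference between experiments). Fcgr4 had 1.05, -0.32 and -0.60 in the same order (edgeR adjusted p = 0.478 for the difference). For these differences 0% of 15562 genes passed after adjustment and 9.52% had an unadjusted p under 0.05, against 2 of 7 members. Dok2, in part selected on these tumors, had 1.26, given as a description with no test. The median change of the 10 macrophage and monocyte markers in this fit was 0.53, and 2 of them were called higher, Ccr2 and Cd14. Their part in the change of Fcgr1 was not tested. Of the pathway and marker genes 8 passed over the 3 experiments, where only Clec5a and Ptpn6 are pathway genes and the rest are cell markers. Among the 8, Ccr2 rose by 1.04 (SE 0.26, edgeR adjusted p = 0.0493), Clec5a by 0.995 (SE 0.22, adjusted p = 0.0272) and Cd14 by 0.71 (SE 0.16, adjusted p = 0.0307). These calls held in 3, 14 and 15 of 20 fits that left out 1 library. The endothelial genes Erg, Cdh5 and Pecam1 fell by 1.42, 1.25 and 1.17 (edgeR adjusted p = 0.00433, 0.00301 and 0.00385).

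The Fcgr1 call was close to the threshold. It was lost when any of 16 of the 20 libraries was left out and kept without replicate 3 of the vehicle or low-dose group in batch p103 or replicate 1 of either group in batch p101, with log2 changes of 0.65 to 0.87 and adjusted p-values of 0.00816 to 0.0837. It was also lost with the hepatocyte covariate (edgeR adjusted p = 0.0636), with no filter (adjusted p = 0.0573) and with the replicate block (adjusted p = 0.107). Without the dose experiment the change was 0.67 (edgeR adjusted p = 0.349), without the DC-101 experiment 0.71 (adjusted p = 0.278) and without the anti-PD1 experiment 0.79 (adjusted p = 0.0181).

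The balance between the activating Fcgr1 and the inhibitory Fcgr2b is described by the difference of their log2 CPM, with no test and with no share over other gene pairs to set beside it. In bulk RNA the 2 transcripts need not come from the same cells. In the dose experiment it was -1.44 ± 0.23 (SD, n = 4) under vehicle, -1.61 ± 0.25 (n = 3) at the low dose and -2.62 ± 0.12 (n = 3) at the high dose. The high-dose tumors, from -2.75 to -2.52, lay below all others of that experiment. In the DC-101 experiment it was -2.70 ± 0.73 (n = 4) under vehicle, -1.49 ± 0.19 (n = 3) at the low dose and -2.16 ± 0.75 (n = 3) under DC-101. Low-dose tumors, from -1.67 to -1.30, lay above the vehicle range of -3.35 to -2.04, while the DC-101 tumors overlapped it. In the anti-PD1 experiment the means were -2.26 ± 0.88 under vehicle, -1.63 ± 0.46 at the low dose, -1.32 ± 0.90 under anti-PD1 and -1.54 ± 0.37 with the combination (n = 3 each), all overlapping. The other activating receptors gave other patterns against Fcgr2b. Fcgr4 minus Fcgr2b had means of -2.71 under vehicle, -2.68 at the low dose and -2.60 at the high dose in the dose experiment, and of -3.24, -3.10 and -3.30 under vehicle, low dose and DC-101 in the DC-101 experiment, with overlapping groups. Fcgr3 minus Fcgr2b had -0.41, -0.68 and -0.93 in the dose experiment and -0.89, -0.77 and -0.59 in the DC-101 experiment, in the same orders. Low-dose (-0.78 to -0.60) and high-dose tumors (-1.09 to -0.75) lay below vehicle (-0.55 to -0.28) in the first, and DC-101 tumors (-0.73 to -0.504) lay above vehicle (-1.003 to -0.76) in the second. In the anti-PD1 experiment Fcgr3 minus Fcgr2b had means of -0.060 under vehicle, -0.25 at the low dose, 0.11 under anti-PD1 and -0.67 with the combination, whose tumors (-0.72 to -0.59) lay below those of vehicle (-0.33 to 0.32) and of anti-PD1 (-0.053 to 0.22). Fcgr4 minus Fcgr2b had -1.85, -2.45, -2.42 and -2.16 there, with every treated group overlapping vehicle.

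**Figure D4:**
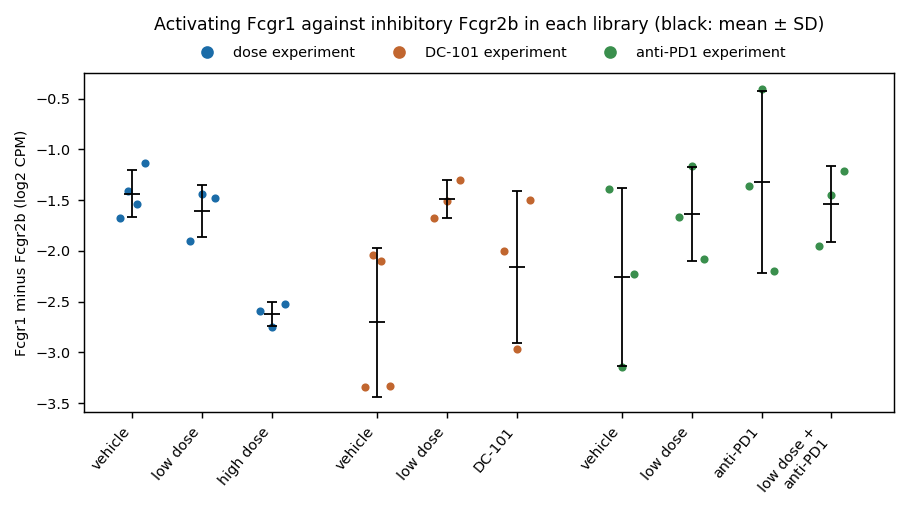
Difference of Fcgr1 and Fcgr2b (log2 CPM, y axis) in each library by treatment group (x axis), colored by experiment, with the mean and SD in black. High-dose tumors sit between -2.75 and -2.52, and the vehicle tumors of the DC-101 experiment reach down to -3.35.

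The members differed in how closely they followed the macrophage and monocyte markers. As a description over the 29 libraries without the high dose, each centered on its experiment mean, Pearson's r with the mean level of the 10 markers was 0.907 for Fcgr1, 0.751 for Fcer1g, 0.578 for Dok2 and 0.529 for Tyrobp. It was 0.482 for Fcgr4, 0.444 for Fcgr2b, 0.283 for Fcgr3 and 0.0994 for Syk. Among the members themselves, over the same 29 libraries, Fcer1g and Tyrobp had 0.896, Fcgr3 and Tyrobp 0.808, Fcgr1 and Fcer1g 0.758 and Fcgr2b and Fcgr3 0.752, whereas Fcgr1 and Fcgr2b had 0.235. The libraries share their treatments, scaling and cell content in these values. The 3 high-dose libraries stand apart from the rest and are left out for that reason.

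**Figure D5:**
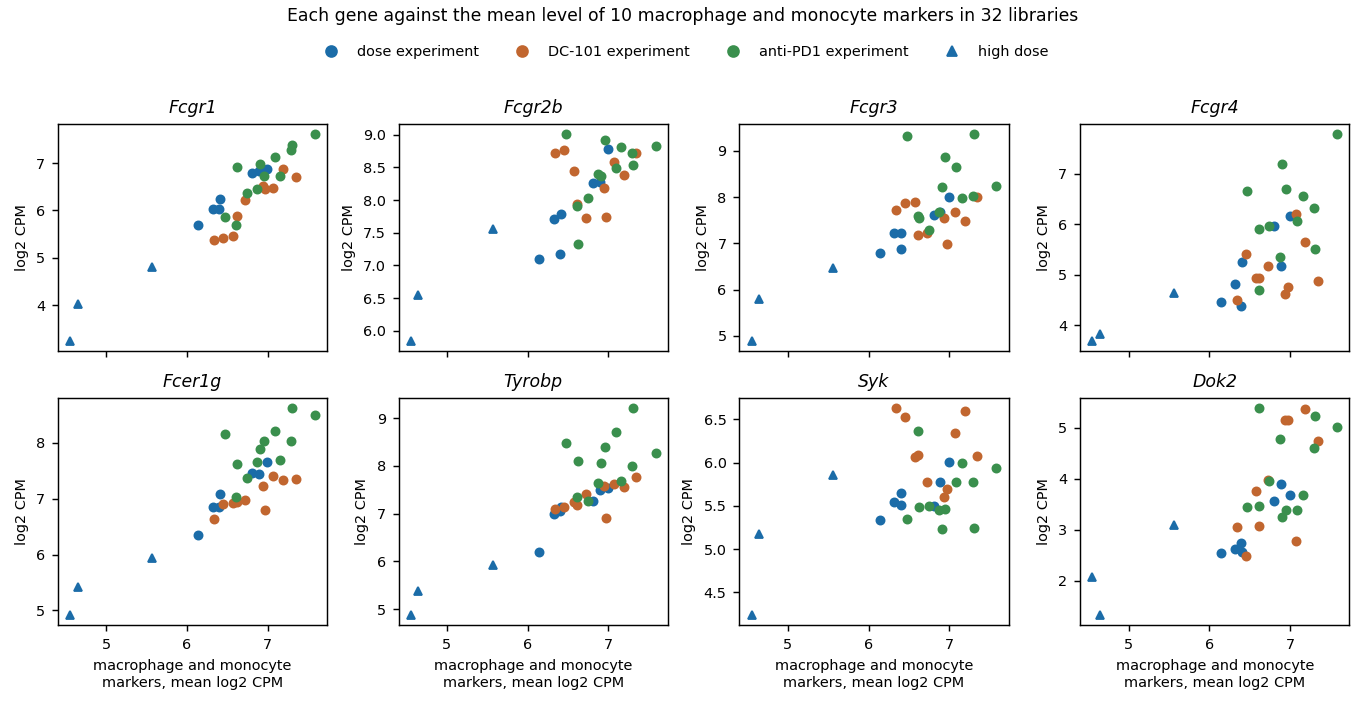
Level of each gene (log2 CPM, y axis) against the mean log2 CPM of 10 macrophage and monocyte markers (x axis) in 32 libraries, colored by experiment, with triangles for the high dose. Fcgr1 follows the markers most closely (r = 0.907 without the high dose) and Syk least (r = 0.0994).

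Across 15428 genes tested in all 3 experiments, the genes whose pattern over all 32 libraries was most like that of a member, by r of experiment-centered log2 CPM, were Slamf9 (r = 0.976), Ctsc (0.964) and Coro1a (0.960) for Fcgr1, Igsf6 (0.948), Ms4a6b and Ms4a6c for Fcgr3, and Slc9a9 (0.925), Tlr8 and Tlr7 for Fcgr2b. Fcgr4 was most like Clec4a1 (0.854), Fgl2 and Rubcnl. Fcer1g and Tyrobp were each other's closest match (0.955), followed by Ctss for both and by C1qb and C1qa. Dok2 was most like Fgr (0.863), Cfp and Ccl7, and Syk, with the weakest match of the 8, was most like Man1c1 (0.843), App and Pik3r5. Without the high-dose libraries the r with the first-ranked gene was 0.946 for Fcgr1, 0.917 for Fcgr3, 0.880 for Fcgr2b, 0.844 for Fcgr4, 0.896 for Fcer1g, 0.845 for Dok2 and 0.763 for Syk. The order of the named genes then changed for some members. Ms4a6c (0.920) stood above Igsf6 for Fcgr3, Cfp (0.853) and Ccl7 (0.852) above Fgr for Dok2, and App (0.794) above Man1c1 for Syk.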

How the data were processed

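Total RNA from mouse tumors was sequenced from poly(A) libraries made with a stranded kit. Per the study's methods, the authors trimmed adaptors with cutadapt (2.4), mapped reads to GRCm38 with STAR (2.7.2a) and counted reads per gene in its GeneCounts mode with Gencode annotation. The authors deposited these values as raw counts, 1 table per experiment with 54446 genes, of which 99.93% matched the annotation used here. Balb/c reads were mapped to the genome of another strain, and which strand column was taken is not given in the sources used here. No count column was left without a sample.

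Counts were tested in R (4.3.3) with edgeR (4.0.16), robust quasi-likelihood fits, TMM scaling, a filter on low counts (minimum 10, total 15) over the groups of the experiment, and Benjamini-Hochberg adjustment over all tested genes at 0.05. All groups of an experiment shared 1 fit, and the low dose was also fitted over 3 experiments with experiment as covariate. Intervals are 95% and rest on the fitted SE. Alternatives were DESeq2 (1.42.0), limma voom (3.58.1), RLE or total-count scaling, no filter, only the groups compared, a replicate block, a hepatocyte score, and leaving out each library or experiment. The code was tested on simulated data.

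The members and gene lists were chosen with earlier results of these data known. All members were described in every comparison. From the pathway and marker lists together, up to 3 genes higher and 3 lower with the largest called change were named, or else the 2 with the smallest unadjusted p. For each member the 3 genes with the highest r over all libraries were named. Marker lists were described by counts and summed CPM. No 2 libraries of a group were alike within sampling noise (chi-square per degree of freedom 12.9 to 834 over 36 pairs). Counts of single genes carry counting error, and each group held 3 or 4 tumors.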

Additional observations from a re-analysis of the deposited data

Results flagged for a closer look

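In 26 combinations of gene or gene difference and group that held 4 or more tumors, 3 tumors stood far from the others of their group by the gap to the nearest tumor over the whole range, and chance alone flags about 1 in 20 such combinations. Vehicle replicate 2 of the dose experiment had the lowest Tyrobp level, 6.20 log2 CPM, with a gap of 0.840 of the range. Vehicle replicate 3 of the DC-101 experiment had the highest Tyrobp level, 7.62 log2 CPM, with a gap of 0.835 of the range. Vehicle replicate 1 of the DC-101 experiment had the lowest difference of Fcer1g and Tyrobp, -0.47 in log2 CPM, with a gap of 0.848 of the range. These are given as values.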

How the results depend on the processing

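The direction of every called change of a member, and of the listed and marker genes called for the high dose against vehicle (50) and the low dose (47) and for the low dose over 3 experiments (8), held in all alternatives run and with any 1 library left out, but many calls were lost. With only the groups compared in the fit, the count of members called was 2 for the low dose against vehicle in the dose experiment and 0 for both high-dose comparisons. Of all genes, 75 were called for the low dose, 4 for the high dose against vehicle and 0 against the low dose. With total-count scaling the high-dose counts were 0 against vehicle and 3 against the low dose, and with the hepatocyte covariate 0 against vehicle. Of all genes, that scaling called 282 and 198 in these comparisons, and that covariate 221 against vehicle. With no filter, Fcgr3 was lost against vehicle (3 left) and Fcgr4 against the low dose (4 left). For the low dose over 3 experiments, the Fcgr1 call was lost (0 members) with the hepatocyte covariate (adjusted p = 0.0636), with no filter (0.0573) and without the dose or the DC-101 experiment. With a filter over the groups of experiment and treatment, chosen after seeing the data, the call was kept (adjusted p = 0.0467), as with DESeq2 (0.00503) and limma voom (0.0258). Leaving out 1 library gave 0 to 4 members for the high dose against vehicle, 1 to 7 against the low dose and 0 to 1 over 3 experiments. Leaving out libraries of the group not compared in the high-dose fits was chosen after seeing the data. The cause of these losses was not tested, and leaving out a library also lowers the number of samples.

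The labels do not say whether same-numbered replicates belong together. Of 36 pairs of libraries with the same number, 12 had a correlation over 0.1, and the values ran from -0.72 to 0.67. Such correlations cannot decide whether the replicates were paired. With the replicate number as a block, 0 members were called in every comparison, including both high-dose comparisons and the low dose over 3 experiments, where Fcgr1 had 0.74 (adjusted p = 0.107). The block took the count of all genes called from 2582 to 1 for the high dose against vehicle.

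Changes that did not pass often turned sign. With total-count scaling, the change was 0.0084 for Fcgr2b (the low dose in the anti-PD1 experiment), 0.017 for Tyrobp (the combination against vehicle) and 0.036 for Syk (the combination against vehicle). With the hepatocyte covariate, the change was 0.083 for Fcgr2b (DC-101 against vehicle), -0.068 for Fcer1g (anti-PD1 against vehicle), -0.017 for Fcgr2b (the combination against vehicle), -0.57 for Fcgr4 (the combination against vehicle) and 0.00036 for Syk (the low dose over 3 experiments). With limma voom, the change was 0.0067 for Syk (DC-101 against the low dose), 0.028 for Fcgr2b (the low dose in the anti-PD1 experiment), -0.10 for Fcgr4 (the combination against vehicle) and 0.075 for Syk (the combination against vehicle). With no filter, the change was 0.046 for Syk (the combination against vehicle). With the replicate block, the change was 0.12 for Fcgr3 (anti-PD1 against vehicle), -0.14 for Fcgr4 (the combination against vehicle), 0.018 for Tyrobp (the combination against vehicle) and 0.054 for Syk (the combination against vehicle). With the dose experiment left out, the change was -0.23 for Fcgr2b (the low dose over 3 experiments), -0.19 for Fcgr3 (the low dose over 3 experiments) and -0.46 for Fcgr4 (the low dose over 3 experiments). With the DC-101 experiment left out, the change was 0.079 for Syk (the low dose over 3 experiments). With 1 library left out, the lowest and highest changes of members that turned sign are as follows. For the low dose over 3 experiments, they ran from -0.050 to 0.33 for Fcgr3, -0.050 to 0.23 for Fcgr4 and -0.15 to 0.044 for Syk. For the high dose against vehicle, they ran from -0.89 to 0.027 for Dok2 and -0.72 to 0.046 for Syk. For the low dose in the DC-101 experiment, they ran from -0.70 to 0.094 for Fcgr4 and -0.016 to 0.29 for Tyrobp. For DC-101 against vehicle, they ran from -0.024 to 0.26 for Fcer1g, -0.38 to 0.057 for Fcgr2b, -0.017 to 0.31 for Fcgr3 and -0.62 to 0.0099 for Fcgr4. For DC-101 against the low dose, they ran from -0.18 to 0.072 for Fcer1g, -0.24 to 0.32 for Fcgr4, -0.21 to 0.33 for Syk and -0.084 to 0.24 for Tyrobp. For the low dose in the anti-PD1 experiment, they ran from -0.54 to 1.12 for Dok2, -0.23 to 0.47 for Fcer1g, -0.23 to 0.34 for Fcgr2b, -0.88 to 0.55 for Fcgr3, -0.37 to 0.32 for Syk and -0.55 to 0.60 for Tyrobp. For anti-PD1 against vehicle, they ran from -1.32 to 0.070 for Dok2, -0.057 to 0.46 for Fcer1g, -0.48 to 0.23 for Fcgr2b, -0.41 to 0.54 for Fcgr3 and -0.38 to 0.29 for Syk. For the combination against vehicle, they ran from -0.062 to 0.50 for Fcgr2b, -0.87 to 0.075 for Fcgr3, -0.75 to 0.56 for Fcgr4, -0.23 to 0.45 for Syk and -0.30 to 0.25 for Tyrobp. For the combination against anti-PD1, they ran from -0.12 to 0.31 for Fcer1g, -0.010 to 0.52 for Fcgr1, -0.058 to 0.64 for Fcgr2b and -0.11 to 1.29 for Fcgr4. Every member had at least 62 counts in each library, and each group held 3 or 4 tumors.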
